A study of Mus musculus with 16 samples.

Results

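ATAC-seq uses the Tn5 transposase to place sequencing adapters into open DNA, and the accessible regions described here are the 6967 autosomal ones whose centre lay in an exon and in no promoter. They were picked from the merged list of 81132 regions of the SBROS experiment, of which 79278 lay on autosomes, so that exon-centred regions made up 8.79% of the autosomal list (95% Wilson interval 8.59 to 8.99). The centre of each region was placed on the GENCODE M21 exons of mm10, and a centre from 1000 bp upstream to 100 bp downstream of any transcription start site (TSS) counted as promoter. A further 141 exon-centred regions on the X and Y chromosomes were left out. Of the other autosomal regions, 16519 were centred in promoters, 27968 in introns and 27824 between genes.

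The list came from 12 libraries of mouse embryonic stem (ES) cells, with 3 replicates for each of 4 sorted populations. All of them were SBROS cells, a single clone of the SBR reporter line (a CGR8 derivative that reports Sox1 and Brachyury) with a SNAP-tag at the end of the SOX2 protein from either allele and a HALO-tag on OCT4 from 1 of its alleles. The cells were grown with serum, LIF, CHIR99021 and PD184352, stained for both tags and for DNA, and sorted in G1 phase. SHOH cells were high for SOX2 and OCT4, SHOL cells high for SOX2 and low for OCT4, SLOH cells low for SOX2 and high for OCT4, and SLOL cells low for both. The deposited list pools all libraries and gives no level, score or library for a region. The study's methods give the reads sequenced per library only as a range, and the list ties no read to a region. The 4 populations therefore could not be compared, and no replicate error can be attached to a region. Every interval below covers counting error only. No statistical test was run, and the comparisons are descriptions of this list. A region was centred in the promoter of 6 of 8 genes that mark ES cells (Dppa5a, Esrrb, Pou5f1, Sox2, Tdgf1 and Zfp42), of 5 of 8 fibroblast genes (Col1a1, Col1a2, Dcn, Thy1 and Twist2) and of 0 of 4 blood genes, compared with 59.1% of all protein-coding genes. An open promoter is not a measure of expression, and the part of other cells in the list was not tested.

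Exons carry the sequence that is kept in the mature RNA, and in their coding part the sequence is constrained by the protein. They can also hold DNA elements, such as the stretch just downstream of a start site, enhancers within coding sequence, and sites for CTCF, the zinc finger protein that anchors chromatin loops. Coding exons tend to be rich in G and C, and the CpG dinucleotide, which is depleted where DNA is methylated, is kept in CpG islands around many start sites. OCT4 recognises an octamer and SOX2 a short element of the SOX family, and the pair often binds next to each other in ES cells.

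The sequences below show what the motif matches of these regions look like. For 4 of the motifs, and for 3′ untranslated, 5′ untranslated and coding exons and exons of other gene types, the match closest to the centre of an exon-centred region is printed as 30 bases of the GRCm38 reference, read 5′ to 3′ on the strand that holds the motif, with the motif in capitals. The motif counts further down rest on matches of this kind. The matches to the CTCF core motif lay in the 3′ untranslated sequence of Scml4, in a 5′ untranslated exon of Gm11627 where the match ran past the end of the exon, in coding sequence of Tecpr2, which acts in autophagy, and in an exon of Muc19, a mucin gene annotated here under a gene type other than protein-coding.
Scml4, chr10:42958319-42958348, plus strand: ttccttgctCCACTAGAGGGCagactgcta
Gm11627, chr11:102578882-102578911, minus strand: ttcttgtctCCACTAGGGGGCgccctcggc
Tecpr2, chr12:110936425-110936454, plus strand: agatgctgtCCAGCAGATGGCagtctctcc
Muc19, chr15:91900438-91900467, plus strand: gatgtcataCCAGCAGGTGGCgctgttgtg

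The octamer matches were in the 3′ untranslated sequence of Hnrnpd, an RNA-binding protein, the 5′ untranslated sequence of the protocadherin Pcdh20, the coding sequence of the zinc finger gene Zfp677 and an exon of A930038B10Rik, a gene that is not protein-coding. All 4 lay on the strand opposite to the gene, whereas 29 of all 68 octamer sites (42.6%, 31.6 to 54.5) were on the strand of the gene.
Hnrnpd, chr5:99959461-99959490, plus strand: tgacaagatttATGCAAATggcaaaagttc
Pcdh20, chr14:88471046-88471075, plus strand: cctctctgttcATGCAAATcgccggggaac
Zfp677, chr17:21397705-21397734, minus strand: ttctttccagtATGCAAATtcagatgtttt
A930038B10Rik, chr14:34765083-34765112, minus strand: aggaacttcccATGCAAATgaaggttacat

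The SOX matches came from the 3′ untranslated sequence of Epm2a, which encodes laforin, the 5′ untranslated sequence of Mgea5, which encodes the enzyme that removes O-linked N-acetylglucosamine, the coding sequence of Myof, a membrane-fusion protein, and the single exon of Gm43705.
Epm2a, chr10:11457555-11457584, minus strand: catgcagttttCCTTTGTaaagcatttcaa
Mgea5, chr19:45783309-45783338, plus strand: accggctcgagcCCTTTGTcagccgctgcc
Myof, chr19:37921328-37921357, plus strand: actcttaccaggCCATTGTtgtcctgaggc
Gm43705, chr5:55792043-55792072, minus strand: ctgacttttgtCCTTTGTagcctcctccag

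REST represses neuronal genes outside neurons, and its long motif was found in 13 exon-centred regions. The matches closest to a region centre were in the 3′ untranslated sequence of the transcription factor gene Nrf1, the 5′ untranslated sequence of Chrnb2, a subunit of the neuronal nicotinic acetylcholine receptor, the coding sequence of Xkr4 and the exon of the processed pseudogene Gm5626.
Nrf1, chr6:30152369-30152398, minus strand: ggcaagGTCAGCACCTGGGCCAGctgccgt
Chrnb2, chr3:89764451-89764480, minus strand: cgcggcTTCAGCACCACGGACAGcgctccg
Xkr4, chr1:3670821-3670850, minus strand: catgatTTCAGCACCGAGGACAGctccacg
Gm5626, chr13:74534294-74534323, minus strand: tgttgaGTCAGAGCCCCAGCCAGaattcga

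Coding sequence held the most exon-centred regions, and 5′ untranslated sequence the most for its length. The centre lay in coding sequence in 3194 regions (45.8%, 95% interval 44.7 to 47.0), in 3′ untranslated sequence in 1153 (16.5%, 15.7 to 17.4), in 5′ untranslated sequence in 824 (11.8%, 11.1 to 12.6), in an exon used only by non-coding transcripts of a protein-coding gene in 662 (9.50%, 8.84 to 10.2) and in an exon of a gene of another type in 1134 (16.3%, 15.4 to 17.2). These classes differ greatly in size, so the counts were divided by the exon sequence outside promoters, 103 Mb in all. The 5′ untranslated class had 384 regions per Mb (exact Poisson interval 359 to 412) on only 2.14 Mb. Coding sequence had 108 per Mb (104 to 112) on 29.6 Mb, whereas 3′ untranslated sequence had 37.2 per Mb (35.1 to 39.4) on 31.0 Mb. The non-coding transcripts of protein-coding genes had 42.4 per Mb (39.3 to 45.8) and genes of other types 45.9 per Mb (43.2 to 48.6). The intervals of the 5′ untranslated class, the coding class and the 3 remaining classes did not overlap between these groups.

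By position in the transcript, last exons held the most regions and first exons the most per length, although with basic transcripts alone first exons held 31.2%, last exons 30.2% and internal exons 24.1%. The last exon held 2475 regions (35.5%), the first exon 1581 (22.7%), an internal exon 1262 (18.1%), the exon of a single-exon transcript 962 (13.8%), and 687 (9.86%) fell where transcripts of the gene disagreed. First exons had 274 regions per Mb (261 to 288), against 60.8 per Mb (57.5 to 64.3) in internal exons and 48.4 per Mb (46.5 to 50.3) in last exons. Last exons make up 49.7% of all exon sequence outside promoters, so that their high count went with a density below that of internal exons. Regions in first exons had a median width of 630 bp and those in internal exons 326.5 bp. Of the first-exon regions 95.3% lay within 1000 bp of a TSS. A first exon begins at a TSS, and 4.87 of the 5.77 Mb of first-exon sequence outside promoters lay within that distance too.

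**Figure D1:**
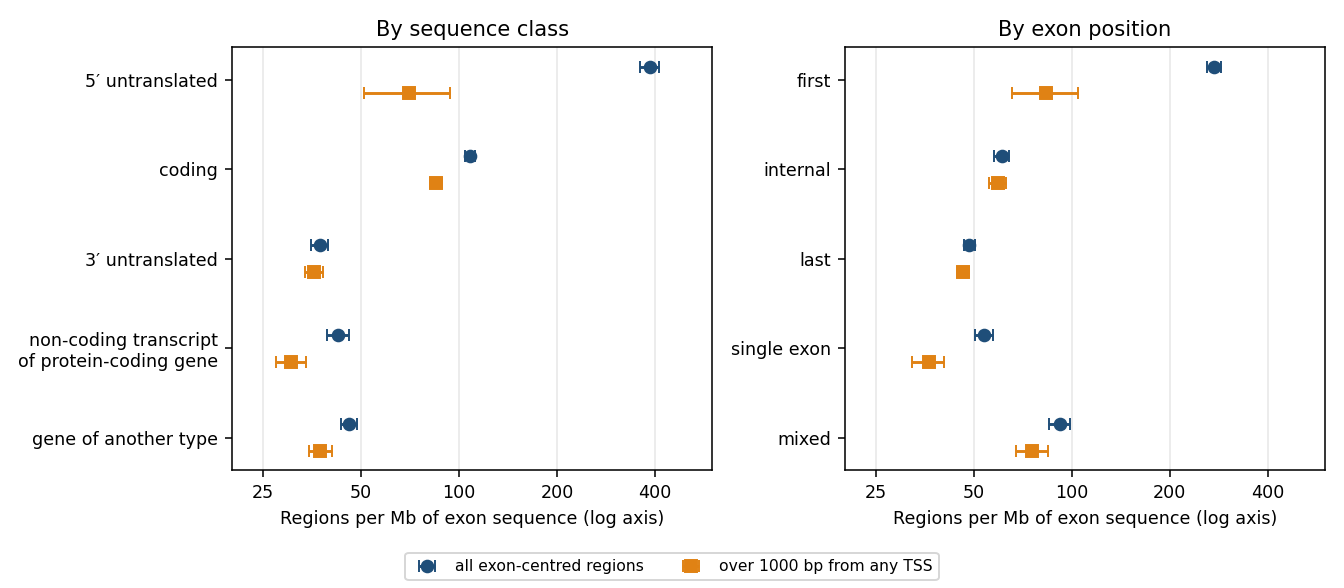
Number of exon-centred regions per Mb of exon sequence outside promoters, on log axes, by sequence class (left) and exon position (right), for all regions (circles) and for those over 1000 bp from any TSS (squares), with exact 95% Poisson intervals that cover counting error only. The 5′ untranslated class stands at 384 per Mb over all regions and at 70.0 per Mb away from start sites, whereas coding sequence stands at 108 and 84.8 per Mb.

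The density was highest next to start sites. Of all exon-centred regions, 1433 (20.6%) were centred 101 to 250 bp from the closest TSS, 797 (11.4%) at 251 to 500 bp and 687 (9.86%) at 501 to 1000 bp, which left 4050 (58.1%, 57.0 to 59.3) over 1000 bp away. It went from 230 per Mb (218 to 242) at 101 to 250 bp to 74.8 per Mb (69.3 to 80.6) at 501 to 1000 bp. Farther out it was 56.6 per Mb (52.9 to 60.4) at 1001 to 2000 bp, 48.15 (45.4 to 51.0) at 2001 to 5000 bp, 51.6 (49.0 to 54.2) at 5001 to 20000 bp and 41.5 per Mb (37.8 to 45.4) beyond 20000 bp. In the 5′ untranslated class it was 651 per Mb (598 to 708) in the nearest bin and 73.6 per Mb (43.6 to 116) at 1001 to 2000 bp. In coding sequence it was 337 per Mb (308 to 368) in the nearest bin, 111 per Mb (100.3 to 122) at 1001 to 2000 bp and 65.9 per Mb (58.0 to 74.7) beyond 20000 bp. The 3′ untranslated class had 74.8 per Mb (35.9 to 137.5) in the nearest bin from 10 regions, 86.5 per Mb (54.8 to 129.7) at 251 to 500 bp and 67.2 per Mb (50.7 to 87.5) at 501 to 1000 bp. Farther out it had 34.5 per Mb (28.8 to 41.0) at 1001 to 2000 bp and 39.0 per Mb (35.6 to 42.5) at 5001 to 20000 bp, intervals that overlap.

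Away from start sites the order of the classes was different. Over 1000 bp from any TSS, coding sequence had 84.8 regions per Mb (81.1 to 88.6), the 5′ untranslated class 70.0 per Mb (50.9 to 93.9) from 44 regions, genes of other types 37.4 per Mb (34.4 to 40.7), the 3′ untranslated class 35.8 per Mb (33.7 to 38.0) and non-coding transcripts 30.5 per Mb (27.4 to 33.9). The 5′ untranslated and coding intervals thus overlapped once the neighbourhood of the TSS was set aside, and both lay above those of the other 3 classes. First exons had 83.4 per Mb (65.6 to 105) there, internal exons 59.1 per Mb (55.7 to 62.7) and last exons 46.3 per Mb (44.4 to 48.3). Setting the promoter at 1000 bp to both sides of a TSS leaves exactly these 4050 regions, of which first exons hold 1.85%, internal exons 28% and last exons 55.1%.

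**Figure D2:**
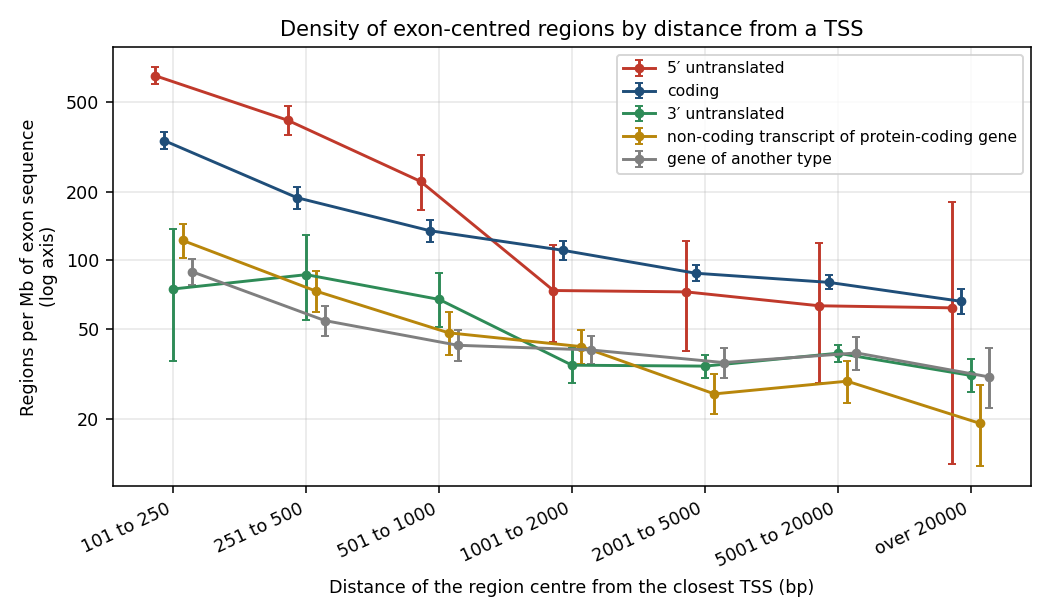
Exon-centred regions per Mb of exon sequence (log axis) against the distance of the region centre from the closest TSS in bp, for the 5 sequence classes, with exact 95% Poisson intervals. The 5′ untranslated class goes from 651 per Mb at 101 to 250 bp to 73.6 per Mb at 1001 to 2000 bp, where its interval (43.6 to 116) overlaps that of coding sequence (100.3 to 122).

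Regions on either side of the promoter limit were alike in width and base composition. Between 101 and 120 bp downstream of a TSS 298 exon-centred regions were found, with a median width of 634 bp, a GC content of 61.5% and a CpG observed/expected ratio of 0.69. At 81 to 100 bp downstream, 691 regions counted as promoter, whether or not their centre lay in an exon, with a median width of 660 bp, a GC content of 61.7% and a ratio of 0.72. The closest on the inner side was 101 bp from a TSS, for instance the 529 bp region chr1:131153018-131153546 at Eif2d, a translation factor gene, and the closest on the other side was 100 bp away, for instance the 431 bp region chr9:78367862-78368292. In all, 27.3% of the exon-centred regions overlapped a promoter window although their centre was outside it. This was so for 82.4% of the 5′ untranslated class, 22.4% of the coding class and 2.17% of the 3′ untranslated class.

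Exon-centred regions stood between promoter regions and intron or intergenic regions in width and base composition. Their median width was 382 bp (quartiles 231 and 627, range 112 to 2402), compared with 600 bp for promoter, 308 bp for intron and 321 bp for intergenic regions. The GC content had a median of 58.1%, against 60.7% in promoter, 50.1% in intron and 49.4% in intergenic regions. The CpG ratio, which is 1 where CpG is as frequent as its bases predict, had a median of 0.49, against 0.69, 0.23 and 0.23. Soft-masked repeats took a median of 3.85% of an exon-centred region, against 4.96% in promoter, 10.9% in intron and 14.9% in intergenic regions, so that in this measure they had the lowest median of the 4 classes, and over 50% of the sequence was repeat in 3.22% of them. A width under 200 bp was found in 18.1% and one over 1000 bp in 8.12%.

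The sequence classes differed from each other in the same measures. The 5′ untranslated class had a median width of 721.5 bp, a GC content of 63.1% and a CpG ratio of 0.71. Coding regions had 393 bp, 61.0% and 0.60, and the 3′ untranslated class 292 bp, 52.6% and 0.29. Of the other region classes, intron and intergenic regions were nearest to the 3′ untranslated values and promoter regions to the 5′ untranslated values. Coding regions over 1000 bp from a TSS still had a median GC content of 59.65% and a CpG ratio of 0.52, with 345 bp of width.

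Accessible exons were richer in CpG than the exons that no region touched. Overlapping exons were joined into 203291 blocks with a centre outside promoters, and 12077 of them (5.94%) were touched by a region of any class. The 200 bp at the centre of a region or block were compared, which in short exons include flanking sequence. Untouched coding blocks had a median GC content of 49.0% and a CpG ratio of 0.31, and coding regions 62.0% and 0.63. The ratio was 0.6 or more in 53.6% of coding regions and in 8.47% of untouched coding blocks. For the 5′ untranslated class these shares were 71.2% and 6.58%, and for the 3′ untranslated class 11.4% and 3.33%. Among regions over 1000 bp from a TSS the ratio was 0.6 or more in 42.6% of the coding, 34.1% of the 5′ untranslated and 9.01% of the 3′ untranslated ones. Touched blocks were longer, with a median of 534 bp against 162 bp, and a longer block is more easily touched, so the share of touched blocks is not a density.

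**Figure D3:**
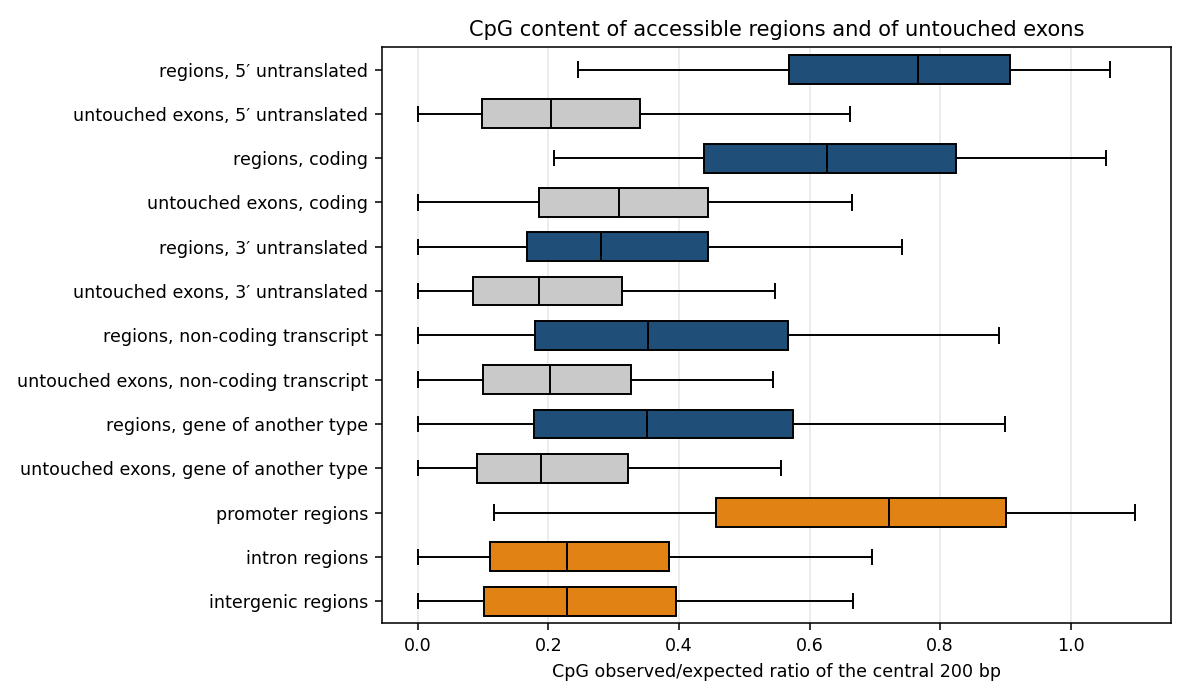
CpG observed/expected ratio of the central 200 bp of exon-centred regions (blue), of exons that no region touched (grey) and of the other autosomal regions (orange). Boxes span the quartiles, the line is the median and whiskers reach the 5th and 95th percentiles. Regions in 5′ untranslated and coding sequence have medians of 0.77 and 0.63, near the 0.72 of promoter regions, and untouched exons of all 5 classes have medians of 0.31 or less.

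Motifs were searched on both strands in the central 200 bp. The letters were ATGCAAAT for the octamer, CCATTGT or CCTTTGT for SOX, TCAAGGTCA for ESRRB, GGGTGTGG for KLF, GGGGCGGGG for the GC box, GCGCATGC for NRF1, AANATGGCG for YY1, CCGGAAGT for ETS, TTCCNGGAA for STAT and TGANTCA for AP-1, and the longer CTCF core and REST motifs are given by name. None of the spelled motifs contains another. A match says only that the letters are present.

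Of the 12 motifs, the CTCF core had the largest ratio of its share in exon-centred regions to its share in untouched exons, and it was most common in 3′ untranslated sequence. It was found in 235 exon-centred regions (3.37%, 2.97 to 3.82), and in 4.52% of all autosomal regions. In the 3′ untranslated class it was in 94 of 1153 regions (8.15%, 6.71 to 9.88), compared with 5.42% (5.17 to 5.70) of intron regions and 5.72% (5.45 to 6.00) of intergenic regions. Of the 16541 untouched 3′ untranslated blocks, 14 held it (0.0846%, 0.0504 to 0.142). Coding regions held it in 1.63% (1.24 to 2.13) and untouched coding blocks in 0.0941% (0.0782 to 0.113). The share was 5.59% (4.08 to 7.61) in non-coding transcripts, an interval that overlaps that of the 3′ untranslated class. It was 4.14% in genes of other types and 0.607% in the 5′ untranslated class.

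The CTCF difference from untouched exons was also present at like base composition. Untouched exons were not counted by distance from a TSS, so away from start sites only shares of regions are given. Among windows with a GC content of 50 to 60%, a comparison chosen after the first values were seen, 48 of 556 regions of the 3′ untranslated class held the core (8.63%, 6.57 to 11.3) and 5 of 4490 untouched blocks (0.111%, 0.0476 to 0.260). Over 1000 bp from a TSS the share was 8.54% (7.01 to 10.4) in the 3′ untranslated class, 7.16% (4.90 to 10.4) in non-coding transcripts, an interval that overlaps it, and 2.32% in coding sequence, and 4.77% over all classes, against 1.44% within 1000 bp. The match lay wholly inside the exon in 93 of 94 sites of the 3′ untranslated class and in 34 of 52 coding sites. It was on the strand of the host gene in 95 of 235 sites (40.4%, 34.4 to 46.8), and 5.96% of the sites were in soft-masked repeats. No CTCF binding data were analysed, so it is not known which of these matches are bound.

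The octamer and the SOX element were less common in exon-centred regions than in intron or intergenic ones. The octamer was in 0.962% (0.758 to 1.22) of exon-centred regions, 1.70% of intron and 1.86% of intergenic regions, and the SOX element in 5.96% (5.42 to 6.54), 9.83% and 11.3%. When the whole exon-centred region was searched, the octamer was in 1.71%, the SOX element in 12.5% and the CTCF core in 5.10%. Against untouched exons of the same class, coding regions held the SOX element less often, in 4.51% (3.84 to 5.28) against 7.27% (7.12 to 7.42). The 5′ untranslated class did so too, in 4.25% (3.07 to 5.85) against 7.49% (6.79 to 8.26). In the 3′ untranslated class the SOX shares were 7.46% (6.08 to 9.12) and 7.02% (6.64 to 7.42), which overlap. Genes of other types had 8.64% (7.14 to 10.4) against 7.66% (7.39 to 7.94), with overlap. Non-coding transcripts had 7.855% (6.04 to 10.2) against 6.84% (6.45 to 7.25), again with overlap. The octamer was in 2.03% (1.36 to 3.03) of regions in genes of other types and in 1.12% (1.01 to 1.23) of untouched blocks of those genes. Coding sequence had the reverse order for the octamer, 0.407% (0.238 to 0.695) against 0.668% (0.623 to 0.716), with intervals that overlap. So did the 5′ untranslated class, 0.485% (0.189 to 1.24) against 0.848% (0.628 to 1.14), also with overlap. The 3′ untranslated class had 1.39% (0.856 to 2.24) against 1.12% (0.975 to 1.30) and non-coding transcripts 1.66% (0.930 to 2.95) against 0.912% (0.773 to 1.08), which overlap too. Exon-centred regions had a higher GC content than untouched exons, and its part in these shares was looked at through the next comparison alone.

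At like base composition the comparison with untouched exons was different, in order for the SOX element and in size for the octamer. Over all windows the SOX element was in 5.96% of exon-centred regions and 7.29% (7.18 to 7.41) of untouched blocks, and the octamer in 0.962% and 0.817% (0.777 to 0.858). Among windows with a GC content of 50 to 60%, the SOX shares were 6.76% (5.39 to 8.46) in coding regions and 6.82% (6.60 to 7.05) in untouched coding blocks, so that the lower share of all coding regions was not seen. Over all classes the SOX element was in 8.03% (7.05 to 9.14) of such exon-centred windows and in 6.73% (6.55 to 6.92) of untouched ones, but in each of the 5 classes taken alone the intervals overlapped. The octamer was in 32 of 2590 exon-centred windows of this GC content (1.24%, 0.877 to 1.74) and in 216 of 68275 untouched ones (0.316%, 0.277 to 0.361). These pools differ in their mix of classes, with coding sequence giving 1035 of the 2590 and 48628 of the 68275 windows. Within coding sequence the octamer shares were 0.580% (0.266 to 1.26) and 0.276% (0.233 to 0.326), and within 3′ untranslated sequence 0.899% (0.385 to 2.09) and 0.401% (0.254 to 0.633), intervals that overlap. In genes of other types they were 2.06% (1.15 to 3.64) and 0.439% (0.324 to 0.595), and in non-coding transcripts 1.99% (0.914 to 4.27) and 0.383% (0.239 to 0.612), intervals that do not. In the 5′ untranslated class they were 2.47% (0.964 to 6.18) and 0.438% (0.201 to 0.952). No OCT4 or SOX2 binding data were analysed, and what share of these matches is bound was not tested.

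Motifs of promoters were fewer in exon-centred regions than in promoter regions. The GC box was in 2.35% of exon-centred and 11.2% of promoter regions, ETS in 0.876% and 3.75%, NRF1 in 1.06% and 2.30%, and YY1 in 0.746% and 2.94%. For KLF the shares were 3.06% in exon-centred, 2.97% in promoter, 5.46% in intron and 4.79% in intergenic regions. ESRRB was in 0.660% of exon-centred regions and in 1.73% of intron regions. AP-1 was in 3.59% of exon-centred and 6.72% of intron regions, STAT in 0.876% and 0.865%, and REST in 0.187% and 0.247%.

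**Figure D4:**
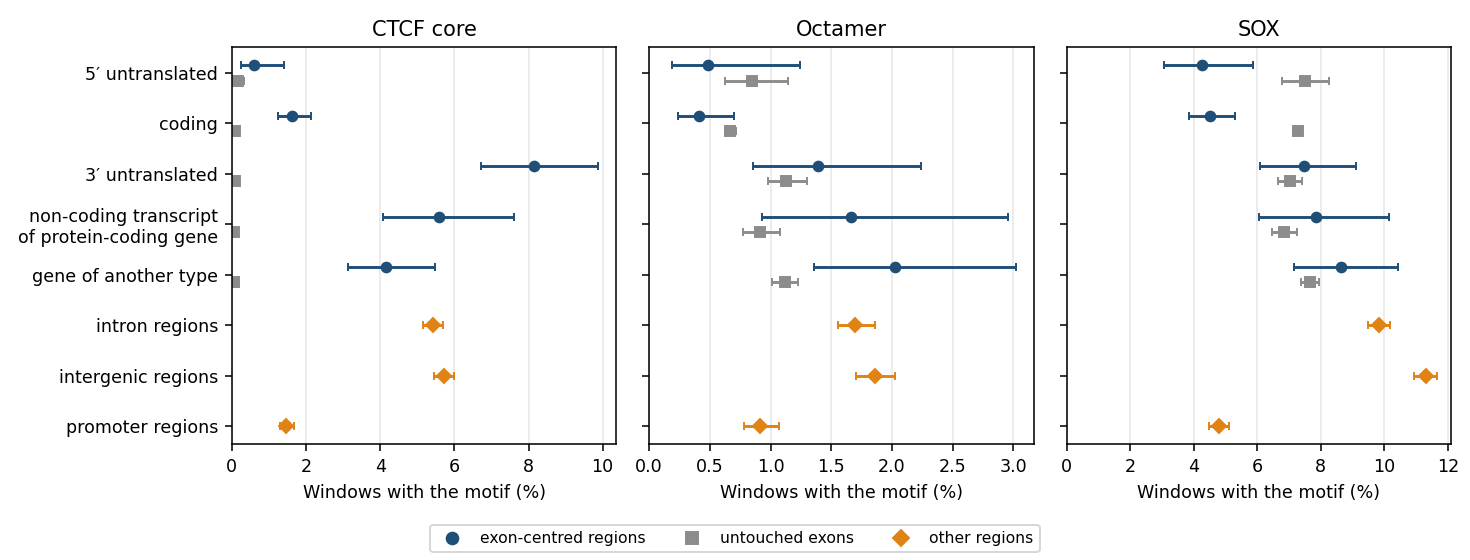
Share of 200 bp windows with the CTCF core, the octamer or the SOX element, in percent, for exon-centred regions by class (circles), exons that no region touched (squares) and the other autosomal regions (diamonds), with 95% Wilson intervals. The CTCF core stands at 8.15% in 3′ untranslated regions and at 0.0846% in untouched 3′ untranslated exons, and the SOX element at 4.51% in coding regions and 7.27% in untouched coding exons.

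The rule places every centre in an exon, so only the extent of a region around its centre is described here. The median region was exonic over 100% of its width, and 52.2% were wholly exonic. The host exons had a median length of 1012 bp, and the rule itself favours long exons because the centre must lie in one. The share wholly exonic was 87.2% in the 3′ untranslated class, where exons had a median of 2632 bp, 41.0% in coding sequence and 20.4% in 5′ untranslated sequence. Regions in internal coding exons, with a median exon length of 221.5 bp, were exonic over a median of 65.4% of their width. When those internal exons were cut into 5 equal parts from 5′ to 3′, the parts held 14.4%, 20.6%, 23.3%, 22.6% and 19.2% of the centres. A region of 1 exon's extent, with both edges within 50 bp of the edges of the same exon, was found 268 times (3.85%), and 75 times with a limit of 25 bp. At 50 bp the count was 156 among regions of 200 bp or more, and 165 with a promoter of 1000 bp to both sides. Ttn, the gene of the giant sarcomere protein titin, and the kinesin gene Kif19a each had 3 such regions, all in coding exons. Those of Ttn were 314, 280 and 336 bp wide on exons of 306, 279 and 282 bp.

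By gene type, 5833 regions (83.7%) lay in protein-coding genes. Their density was 74.5 per Mb (72.5 to 76.4). LincRNA genes held 376 regions at 57.3 per Mb (51.7 to 63.4), antisense genes 153 at 54.3 per Mb (46.0 to 63.6), loci of the type TEC, which await experimental evidence, 217 at 36.6 per Mb (31.9 to 41.8), and processed pseudogenes, which are copies made through RNA, 176 at 35.5 per Mb (30.4 to 41.1). Unprocessed pseudogenes, made by gene duplication, held 14 at 11.6 per Mb (6.34 to 19.5). Only uniquely mapped reads were kept by the authors, and the effect of this on duplicated sequence was not tested. Regions in processed pseudogenes had a CpG ratio of 0.46 and 83.5% of them were within 1000 bp of a TSS. The start of every annotated transcript counted as a TSS, a pseudogene's own included. The host exons of these regions had a median length of 786.5 bp, so closeness to such a start says little about promoters.

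Exon-centred regions were spread over many genes. They had 5713 host genes, of which 4731 held a single region, 982 held 2 or more and 209 held 3 or more. Of 20521 protein-coding genes with exon sequence outside promoters, 4650 held a region (22.7%, 22.1 to 23.2), and these had a median of 4038 bp of such sequence against 2610 bp in the others. A region was centred in the gene's own promoter in 60.1% (58.7 to 61.5) of the protein-coding hosts and in 58.8% (58.0 to 59.6) of the other protein-coding genes, shares whose intervals overlap. Among protein-coding genes with 5018 bp or more of exon sequence, 32.6% (31.2 to 34.1) of those with such a promoter and 39.9% (37.2 to 42.7) of those without held an exon-centred region. For regions over 1000 bp from a TSS the order was the other way round, 25.7% and 20.9%.

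Zfhx3, a large homeodomain and zinc finger transcription factor gene on chromosome 8, held the most exon-centred regions, 7 in all. A 941 bp region lay in the 5′ untranslated sequence of its first exon, 396 bp from a TSS, and the other 6 were in coding exons 9663 to 56998 bp from the closest TSS, with widths of 279 to 913 bp. These coding exons were long, 2768, 5454 and 6249 bp, and each of them held 2 regions.

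Btbd11 and the tau kinase gene Ttbk1 held 6 regions each. In Btbd11 4 of them were within 1000 bp of a TSS, in Ttbk1 1, and 4 of the Ttbk1 regions were in 3′ untranslated sequence with widths of 177 to 206 bp.

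Fam184b, Palld (palladin, an actin-binding protein), Robo1 (an axon guidance receptor), Rreb1, Tiam1, Tnxb and Trio held 5 each. Of the Rreb1 regions, 4 lay side by side within 1 coding exon of 5988 bp, between chr13:37929664-37929857 and chr13:37930814-37931199. In Tnxb, an extracellular matrix gene, all 5 were coding, and 3 of them lay in an exon of 1833 bp. Tiam1 and Trio both encode exchange factors for small GTPases, and their regions were spread over coding, 5′ untranslated and, in Trio, non-coding exons.

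The 5 widest regions were near start sites. They lay at Egr4 (2402 bp, chr6:85511429-85513830), Itpripl2 (2252 bp), A730013G03Rik (2238 bp), C530025M09Rik (2209 bp) and Sox17 (2110 bp, chr1:4491737-4493846), with CpG ratios from 0.61 to 0.83. Egr4 encodes an early growth response transcription factor and Sox17 the endoderm regulator, and each of the 5 regions overlapped a promoter window.

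Genes of pluripotency held exon-centred regions in 13 of the 36 autosomal genes matched by symbol from a list of 38 (36.1%, 22.5 to 52.4), each with 1 region, an interval that includes the 22.7% of all protein-coding genes. Their density was 129 per Mb (68.7 to 220.6). The list and those below were chosen with earlier results of these data known. Sox2, a core factor that the study tagged, had a 459 bp region in the coding part of its single exon, chr3:34650726-34651184, 550 bp from a TSS, with a CpG ratio of 0.82. Pou5f1, which encodes OCT4, had a region in its promoter and none centred in an exon. Nanog, which stabilises self-renewal, had a 608 bp region at the coding part of its last exon, chr6:122712938-122713545, 5674 bp from the closest TSS. Klf4 had a coding region of 440 bp and Klf5 of 368 bp, both in internal exons, 1407 and 2539 bp from a TSS. Fgf4, the growth factor through which ES cells signal to themselves, had a 396 bp region in the 3′ untranslated sequence of its last exon, chr7:144864320-144864715, with a CpG ratio of 0.058.

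Of the remaining pluripotency genes, 6 had their region within 1000 bp of a TSS, which may be that of any transcript and not the gene's outer start. Utf1 had a coding region of 1228 bp at 251 bp from a TSS, Tdgf1 a 5′ untranslated region of 166 bp, Nodal and Tbx3 coding regions of 527 and 470 bp, and Lefty2 and Stat3 regions of 628 and 293 bp in exons of non-coding transcripts. Mycn had a coding region of 177 bp in its last exon, 3268 bp from a TSS, and Pou3f1 1 of 347 bp in its single exon.

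Regulators of the lineages that ES cells form held them in a share above that of all protein-coding genes, with an interval that overlaps that of the pluripotency list. Of 37 autosomal genes matched from a list of 38, 20 had an exon-centred region (54.1%, 38.4 to 69.0), with 25 regions at 223 per Mb (144 to 329) against 74.5 per Mb over all protein-coding genes. With regions over 1000 bp from a TSS alone, 9 of the 37 genes held 1 (24.3%, 13.4 to 40.1), an interval that includes the 14.0% of all protein-coding genes. A region was centred in the promoter of 20 of the 37 genes, near the 59.1% of all protein-coding genes.

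Genes of the neural lineage among them included Olig2, Zic1, Atoh1, Hes5, Neurod1, Neurog1, Neurog2 and Sox6. Zic1 had coding regions of 215 and 1102 bp in the same exon, with CpG ratios of 0.77 and 0.85. Olig2 and Neurog2 had regions only in the coding part of the last exon, 351 and 180 bp wide in Olig2 and 577 bp in Neurog2. The 225 bp region of Sox6 was the farthest from a TSS in the list, 126208 bp, in 3′ untranslated sequence.

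Genes of the mesoderm and endoderm lineages among them were Eomes, Mixl1, Mesp1, Msgn1, Foxa1, Foxa2, Gata4 and Sox17. Eomes had a coding first-exon region of 1110 bp, Mixl1 of 947 bp and Mesp1 of 1019 bp, each within 1000 bp of a TSS. Foxa1, a pioneer factor of endoderm, had a 1116 bp region in the coding part of its last exon, 3398 bp from a TSS, and Foxa2 had regions of 562 and 309 bp in the same part of its own. Gata4 had a region of 539 bp centred in an internal coding exon, 4486 bp from a TSS. Cdx2 and Gata3, which act in trophectoderm, had a coding region of 952 bp and a 3′ untranslated one of 174 bp, and Rbpj, the DNA-binding partner of Notch, had 213 and 211 bp in exons of non-coding transcripts.

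Of 12 genes of DNA methylation, the enzymes that oxidise methylcytosine were the 3 with an exon-centred region (25%, 8.89 to 53.2), a share near the 22.7% of all protein-coding genes. Tet3 had a coding region of 541 bp and a 5′ untranslated one of 163 bp, Tet1 a 3′ untranslated one of 166 bp and Tet2 one of 167 bp in an exon of non-coding transcripts. All 12 genes had an accessible promoter, as did 59.1% of all protein-coding genes. Among 30 imprinted genes 7 held a region (23.3%, 11.8 to 40.9), again near that share, at a density of 33.8 per Mb (14.6 to 66.7), on exon sequence of which the 93092 bp exon of the non-coding Kcnq1ot1 is a large part. Without Kcnq1ot1 the density was 47.5 per Mb (19.1 to 97.9), an interval that includes the 74.5 per Mb of protein-coding genes. The list also holds other genes that are not protein-coding, such as Meg3, so protein-coding genes alone are not a like comparison. Of all genes of other types 4.01% held a region, at 45.9 per Mb. The imprinted genes with a region were Grb10 with 2 and Commd1, Dlk1, Kcnq1ot1, Magel2, Meg3 and Ndn with 1 each. The 2 regions of Grb10, 1069 and 318 bp wide in 5′ untranslated first exons, had CpG ratios of 1.09 and 1.10.

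Families of developmental regulators held exon-centred regions in a larger share of their genes than the 22.7% of all protein-coding genes. They did so in 12 of 18 SOX genes (66.7%, 43.7 to 83.7), 26 of 41 forkhead genes (63.4%, 48.1 to 76.4) and 21 of 39 Hox genes (53.8%, 38.6 to 68.4). Counting regions over 1000 bp from a TSS alone, the shares were 33.3% (16.3 to 56.2) of SOX, 43.9% (29.9 to 59.0) of forkhead and 7.69% (2.65 to 20.3) of Hox genes, against 14.0% of all protein-coding genes. The Hox share thus lay below the overall share by that count, with an interval that includes it. Sox4 had 3 regions on its single exon, from 776 bp in 5′ untranslated sequence to 246 bp in coding sequence, and Sox10 and Sox11 had 2 each. Foxc1 also had 3 on its single exon, 1 coding and 2 in 3′ untranslated sequence, all more than 1000 bp from a TSS. Of the 22 Hox regions 19 were within 1000 bp of a TSS, and Hoxc11 had 2 in its first exon, 359 and 248 bp wide.

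Clustered gene families showed both extremes. Clustered protocadherins, cell-surface proteins with a large first or single exon per gene, held regions in 39 of 57 genes (68.4%, 55.5 to 79.0) at 291 per Mb (216 to 383). Replication-dependent histones held 22 regions in 22 of 44 genes at 552 per Mb (346 to 836), of which 20 were within 1000 bp of a TSS. The linker histone genes Hist1h1a, Hist1h1b and Hist1h1c had coding regions of 1043, 1282 and 1373 bp on exons of 741, 743 and 1560 bp. Olfactory receptors held 32 regions in 28 of 1127 genes (2.48%, 1.72 to 3.57) and vomeronasal receptors 7 in 7 of 328 (2.13%, 1.04 to 4.34). Zinc finger genes (25.5%), solute carriers (23.7%) and collagens (23.8%) had shares whose intervals include that of all protein-coding genes. So did ribosomal protein genes, with 15 of 95 (15.8%, 9.81 to 24.4) at 124 per Mb (72.4 to 199). Counting regions over 1000 bp from a TSS alone, zinc finger genes had 18.8% (15.3 to 22.8) and ribosomal protein genes 6.32% (2.93 to 13.1). The 14.0% of all protein-coding genes lay below the first interval and above the second. Solute carriers (15.9%, 12.5 to 20.1) and collagens (19.05%, 9.98 to 33.3) had intervals that include it. Histones had 4.5% (1.26 to 15.1) by that count, and clustered protocadherins 47.4% (35.0 to 60.1). None of the shares of lists and families was adjusted for exon length. Exon sequence outside promoters was 0.137 Mb in the 95 ribosomal protein genes and 0.0398 Mb in the 44 histone genes. All 20521 protein-coding genes had 78.3 Mb. Of protein-coding genes with 1583 bp or less, 5.18% with an accessible promoter and 3.18% without held a region over 1000 bp from a TSS.

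**Figure D5:**
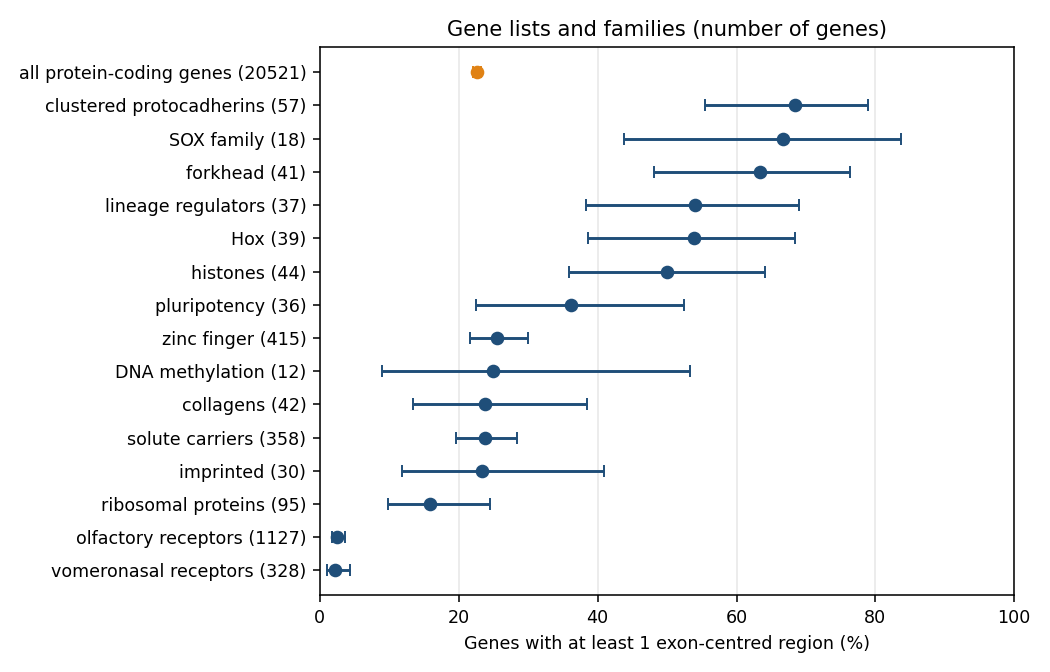
Share of genes with at least 1 exon-centred region, in percent with 95% Wilson intervals, for all protein-coding genes (orange) and for each list or family (blue), with the number of genes in parentheses. Clustered protocadherins stand at 68.4% and SOX genes at 66.7%, all protein-coding genes at 22.7% and vomeronasal receptors at 2.13%.

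Exon-centred regions were found on every autosome, at 56.6 per Mb of exon sequence on chromosome 14 to 83.6 per Mb on chromosome 18, with a median of 63.9 per Mb. Chromosome 6 had 477 regions at 77.2 per Mb (70.4 to 84.4), within this range. They were 7.23% of all regions on that chromosome, the smallest such share among the 19 autosomes. Chromosome 6 also had the most regions of all classes, 6597, followed by 6215 on chromosome 2, so the low share does not mean a low exon density.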

How the data were processed

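ATAC-seq was measured in 12 libraries of sorted cells. The authors aligned reads to mm10 with STAR (2.5.3a), kept unique reads, removed duplicates with Picard, called peaks per library on whole fragments with MACS2 (2.1.1.20160309), merged them with BEDOPS and dropped peaks overlapping ChIP input peaks, and their methods name no shift for the Tn5 insertion. The deposited file gives chromosome, start (counted from 0) and end of each merged region, in bp, with no count or level, so that the reads behind a region are not known. 4 ChIP-seq samples were left out, as the region list holds none of their values.

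Regions were compared with the GRCm38 chromosome lengths, which none exceeded, and centres were placed on all GENCODE M21 transcripts with Python (3.11.15), numpy (2.4.6) and pandas (2.3.3). At overlapping genes the host was the protein-coding one, then that with the longest exon. A base was coding if any transcript of the host made it so, then untranslated. Densities are regions per Mb of exon outside promoters with exact 95% Poisson intervals (scipy 1.17.1), and shares carry 95% Wilson intervals. Classification and motif search were tested on simulated data. Alternatives were other promoters, transcripts, overlaps, widths and windows, and a limit to windows with a GC content of 50 to 60%, which was chosen after seeing the data.

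Members and lists were chosen with earlier results of these data known. Named genes were the 10 with the most regions, listed pluripotency, lineage and DNA methylation genes, the top 3 of each family, hosts of the 5 widest regions and of printed sequences, genes with 3 or more regions of an exon's extent, and regions at the promoter limit. Imprinted genes with a region and immunoglobulin V segments were named after their values were seen. The regions of 1 lineage gene are not reported here.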

Additional observations from a re-analysis of the deposited data

How the results depend on the processing

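Results were recomputed under 12 alternatives, giving 128 values, of which 64 stayed within the main value's 95% interval (counts within 1.5 times) and 64 did not. A promoter of 1000 bp to both sides gave 4050 regions in 3397 host genes, with 50.1% coding, 1.09% 5′ untranslated and 26.3% 3′ untranslated, and 1.85% in first and 55.1% in last exons. A promoter of 500 bp upstream gave 12.65% 5′ untranslated. Basic transcripts alone gave 50.8% coding, 18% 5′ and 15.2% 3′ untranslated, 31.2% first and 30.2% last exon. Protein-coding genes alone gave 54.6% coding, 14.9% 5′ and 19.2% 3′ untranslated and 25.3% first exon. Regions exonic over 50% of their width gave 9.40% 5′ and 18.4% 3′ untranslated, 18.3% first and 39.7% last exon. Regions of 200 bp or more gave 13.7% 5′ and 14.9% 3′ untranslated, 25.04% first and 33.6% last exon. Untranslated before coding gave 42.2% coding and 19.8% 3′ untranslated, and the transcript with the longest coding sequence 24.5% first and 36.9% last exon. The CTCF share in the 3′ untranslated class was 10.75% in whole regions and 7.19 to 8.63% under the other alternatives tried for it. The cause of these shifts was not tested, beyond the sequence each alternative adds or removes.

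The list names no library, so leaving out replicates could not be run. No paired analysis was possible because the list holds no value per library. Without reads or levels per region, a region that is absent cannot be told apart from one that was not detected.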

Other observations

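Immunoglobulin heavy-chain V segments held 21 exon-centred regions, 15 in V genes and 6 in V pseudogenes, all of them Ighv segments on chromosome 12. V segments are the antibody gene pieces that B cells join by recombination, at signals just past their 3′ end. The density was 246 per Mb (138 to 406) in V genes, on only 0.0609 Mb of exon sequence, and 152 per Mb (55.8 to 331) in V pseudogenes, against 45.9 per Mb over all genes of other types. Only 15 of 215 V genes (6.98%, 4.27 to 11.2) and 6 of 158 V pseudogenes (3.80%, 1.75 to 8.04) held a region, compared with 4.01% (3.78 to 4.26) of all genes of other types. These densities and shares are over all V genes and V pseudogenes of the annotation, not the heavy-chain ones alone. The regions were 142 to 1018 bp wide with a median of 307 bp. Their centres lay 18 to 187 bp from the 3′ end of the V exon (median 89 bp), distances bounded by exons of 298 to 329 bp, and 14 of the 21 regions reached past that end. The CTCF core was in the window of 1 of them. A V gene promoter held a region in 12 of 215 genes. These segments were singled out after their values were seen, they belong to a family of related copies, and how unique mapping bears on them was not tested.

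Olfr539 held 3 regions although its family was almost without them. All 3 lay in its annotated last exon of 11307 bp, in 3′ untranslated sequence, 262 to 492 bp wide. Soft-masked repeats made up 84.2%, 36.3% and 11.6% of them, against a median of 3.85% over all exon-centred regions. Olfr1238 likewise held 2 in the 3′ untranslated part of an exon of 5127 bp, and these were 61.2% and 31.8% repeat. Of the 28 olfactory receptor genes with a region, 20 had 1 or more over 1000 bp from a TSS, and 10 of all 1127 had a region in the promoter.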
